A study of Mus musculus with 2 samples.

Results

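The genes described here encode the proteins of the cytosolic ribosome, and the measurement is how accessible and how densely footprinted their promoters were in mouse thymus. Members were the protein-coding genes of GENCODE M21 on mm10 whose symbol starts with Rpl or Rps followed by a digit, plus Rpsa, Rplp0, Rplp1 and Rplp2, without the Rps6k kinase genes and Rps19bp1. This gave 91 of 21938 protein-coding genes. Of these, 77 are the usual subunit genes, 31 of the small and 46 of the large subunit, 8 carry a paralog-type symbol, and 6 carry a symbol with the pseudogene suffix -ps although GENCODE lists them as protein-coding. The data are DNase-seq, in which the nuclease cuts accessible chromatin, on whole thymus. The mice were 25 days old, female, and of the hybrid B6CASTF1/J, so each carried a C57BL/6J and a CAST genome. There was 1 group of 2 libraries, each from its own biosample under a shared donor label, with no treatment and no other genotype, so no comparison between conditions exists. All values below are descriptions of these 2 libraries, genes are not replicates, and no test was made.

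The ribosome translates messenger RNA with a small subunit that reads the message and a large subunit that joins amino acids, and each subunit needs about equal amounts of all its proteins. In vertebrates these genes are known for housekeeping promoters without a usual TATA box, for transcription that starts at a C within a run of pyrimidines, and for the 5′ terminal oligopyrimidine (TOP) sequence that this start gives the mRNA, through which mTOR signalling sets its translation. Dividing thymocytes need many ribosomes, and loss of Rpl22 in mice blocks the development of alpha-beta T cells.

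The deposited lists held 127552 peaks in replicate 1 and 67270 in replicate 2, and 363775 and 203939 footprints, which are short stretches protected from cutting. Read depth is not stated. Promoters of the 10 thymocyte markers examined, Cd3e, Cd4 and Rag1 among them, held a peak in 10 of 10 cases in both libraries, against 0 of 5 liver markers in both. In both libraries a promoter peak was present for 0 of 5 B-cell, 3 of 5 myeloid, 2 of 5 erythroid, 2 of 5 thymic epithelial and 2 of 5 endothelial markers. Values are over all cells of the tissue, and the part of each cell type in them was not tested.

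The promoter sequences that carry the results are printed here as 125 bases each, 100 of them before the annotated start that lies nearest to the densest peak and 25 from the start on. They are the mm10 reference (RefSeq, GRCm38) on the gene's strand, not the CAST allele, and capitals mark bases covered by footprints in both libraries. The first 3 promoters hold the CGCG element TCTCGCGAGA, a palindrome known to be bound by BANP in mouse and human cells, and in each of them the element lies in capitals.
Rps6 (mm10 chr4:86857388-86857512, minus strand): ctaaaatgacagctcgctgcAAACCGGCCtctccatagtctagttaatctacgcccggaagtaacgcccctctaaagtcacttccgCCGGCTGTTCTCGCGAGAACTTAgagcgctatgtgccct
Rpl26 (mm10 chr11:68901483-68901607, plus strand): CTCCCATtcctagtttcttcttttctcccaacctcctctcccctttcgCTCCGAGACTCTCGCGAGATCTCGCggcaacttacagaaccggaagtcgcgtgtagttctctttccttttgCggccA
Rps28 (mm10 chr17:33824538-33824662, minus strand): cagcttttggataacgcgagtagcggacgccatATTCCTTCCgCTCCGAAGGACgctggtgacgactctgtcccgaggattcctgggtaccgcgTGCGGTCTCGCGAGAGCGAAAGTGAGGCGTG

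Rps21 and Rps7 are shown for a word known for ETS-family factors such as GABP (CCGGAAG, or CTTCCGG on the other strand), and Rpl18 for a word known for YY1 (AAGATGG, read here as CCATCTT). In all of them a match lies in capitals. Rps21 holds the ETS word at 2 places, both in capitals.
Rps21 (mm10 chr2:180257277-180257401, plus strand): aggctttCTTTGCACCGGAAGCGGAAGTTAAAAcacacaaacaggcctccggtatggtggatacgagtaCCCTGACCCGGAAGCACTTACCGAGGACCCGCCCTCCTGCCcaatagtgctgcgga
Rps7 (mm10 chr12:28635929-28636053, minus strand): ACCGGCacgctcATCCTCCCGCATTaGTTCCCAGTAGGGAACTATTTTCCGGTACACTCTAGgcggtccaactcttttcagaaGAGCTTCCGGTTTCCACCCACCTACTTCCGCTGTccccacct
Rpl18 (mm10 chr7:45715357-45715481, plus strand): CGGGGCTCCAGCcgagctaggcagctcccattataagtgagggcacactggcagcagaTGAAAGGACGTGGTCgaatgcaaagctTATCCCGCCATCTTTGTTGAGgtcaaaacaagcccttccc

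Rps3a1 and Rplp0 are shown because their peaks ranked highest in replicate 1. Rplp0 had 82 of its 125 bases in footprints of both libraries.
Rps3a1 (mm10 chr3:86142678-86142802, minus strand): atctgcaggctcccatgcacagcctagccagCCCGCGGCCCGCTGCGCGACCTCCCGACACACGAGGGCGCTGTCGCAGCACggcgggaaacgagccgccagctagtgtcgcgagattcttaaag
Rplp0 (mm10 chr5:115559367-115559491, plus strand): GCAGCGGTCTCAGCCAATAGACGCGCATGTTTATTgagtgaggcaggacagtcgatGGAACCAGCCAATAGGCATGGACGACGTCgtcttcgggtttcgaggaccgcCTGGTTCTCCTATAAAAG

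Rpl7 is shown for the pyrimidine run known of these genes. The base at its annotated start, which lies 260 bp downstream of the gene's 5′ end, is a C, and counted from it the pyrimidines run for 14 bases, none of them in capitals. Pyrimidines also lie directly before the start, and most of those are in capitals.
Rpl7 (mm10 chr1:16104378-16104502, minus strand): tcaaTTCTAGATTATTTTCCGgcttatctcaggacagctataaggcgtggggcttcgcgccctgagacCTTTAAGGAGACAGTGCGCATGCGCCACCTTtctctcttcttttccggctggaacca

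The last 3 concern genes without a promoter peak at the annotated gene start. For Rps2 and Rps10 the window lies at an internal annotated start, 1947 and 1425 bp downstream. Rpl39l is shown as a closed promoter, which holds the ETS word and no footprint.
Rps2 (mm10 chr17:24719963-24720087, plus strand): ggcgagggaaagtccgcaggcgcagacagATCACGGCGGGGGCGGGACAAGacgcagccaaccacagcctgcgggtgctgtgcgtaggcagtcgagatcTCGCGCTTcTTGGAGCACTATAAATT
Rps10 (mm10 chr17:27635220-27635344, minus strand): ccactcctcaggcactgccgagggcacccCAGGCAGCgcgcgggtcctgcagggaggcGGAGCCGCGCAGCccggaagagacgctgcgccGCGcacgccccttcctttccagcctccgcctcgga
Rpl39l (mm10 chr16:10170126-10170250, plus strand): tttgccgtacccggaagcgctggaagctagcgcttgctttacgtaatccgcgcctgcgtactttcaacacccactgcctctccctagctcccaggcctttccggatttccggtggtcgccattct

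Nearly all subunit genes had an open promoter, and the open set was the same in both libraries. A peak lay within 1 kb of the gene start for 79 of 91 ribosomal protein genes (86.8%) in replicate 1 and for 79 in replicate 2. Among all protein-coding genes the share was 61.7% in replicate 1, 55.1% in replicate 2 and 54.4% in both. The 79 genes were identical between the libraries. By class, 29 of 31 small-subunit genes, 45 of 46 large-subunit genes, 4 of 8 paralogs and 1 of 6 genes with a -ps symbol were open. The mitochondrial ribosomal protein genes, which encode the proteins of the separate ribosome of mitochondria, had a peak in 76 of 78 cases.

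The 3 subunit genes without a promoter peak were Rps2, Rps10 and Rpl17, and in each the nearest peak lay a short way downstream. Its near edge was at 1785 bp in both libraries for Rps2, at 1249 and 1269 bp for Rps10, and at 1823 and 1863 bp for Rpl17. Each of these peaks sat at another annotated start of the same gene, with its midpoint at -52.5 bp in both libraries for Rps2, at -56.5 and -46.5 bp for Rps10, and at -6.5 and 23.5 bp for Rpl17, where negative values are upstream. They were dense sites. The percentile of the peak's density within its library's list was 98.4 and 97.3 for Rps2, 92.2 and 88.1 for Rps10, and 98.8 and 94.0 for Rpl17. When any annotated start counted, 77 of 77 subunit genes were open in both libraries, and 82 of 91 ribosomal protein genes, against 66.5% (replicate 1) and 59.7% (replicate 2) of the whole annotation.

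The paralogs divided evenly. Rpl22l1, Rps27l, Rpl36al and Rpl7l1 were open, while Rpl3l, Rpl10l, Rpl39l and Rps27rt had no promoter peak in either library. Rpl3l is known from heart and skeletal muscle and Rpl10l and Rpl39l from testis in mice. The nearest peak was -3260 and -3280 bp away for Rpl3l, 22355 and 187861 bp for Rpl39l, and -118744 and 593390 bp for Rpl10l. Bases with a false discovery rate below 0.05 numbered 0 around the starts of Rpl3l and Rpl39l in both libraries. Copies in the genome can keep reads from being placed, so the share of unique 31-base words in the 1 kb windows was computed. It was 100% for Rpl39l and 96.3% for Rpl3l, but 71.0% for Rpl10l and 70.9% for Rps27rt. Over the 79 open members it lay between 66.7% and 100%, with Rpl37a at 68.1%. The part of read placement in the missing peaks was not tested.

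Of the 6 genes with a -ps symbol, Rpl10-ps3, Rpl36-ps4, Rpl36a-ps1, Rpl9-ps1 and Rps12-ps3 had no peak. Their unique share was 60.8%, 85.6%, 78.6%, 84.7% and 71.4%. Rpl9-ps6 counted as open only through a peak that reached into the window and whose midpoint lay 1127.5 and 1087.5 bp downstream, at percentiles of 64.8 and 76.1.

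The open ribosomal protein promoters ranked high among all accessible sites of the thymus. The authors' density is used only as a percentile within its own list, because its scaling is not stated. The densest promoter peak of each gene had a median percentile of 96.96 in replicate 1 and 93.01 in replicate 2 over the ribosomal protein genes, or 94.99 ± 2.79 (SD, n = 2). The medians were 95.2 and 87.6 over mitochondrial ribosomal protein genes, and 92.8 and 87.4 over all protein-coding genes with a promoter peak. The densest 10% of the list held 71 of the 79 open members (89.9%) in replicate 1, against 58.4% of all genes with a promoter peak. In replicate 2 it held 53 of 79 (67.1%), against 42.9%. Replicate 2, with the shorter list, gave lower percentiles for most members. Across the 79 genes the percentiles of the libraries had a Spearman's rho of 0.82. Over all 11945 genes open in both it was 0.93. These are descriptions, and both axes rest on peaks called from libraries of different yield.

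**Figure D1:**
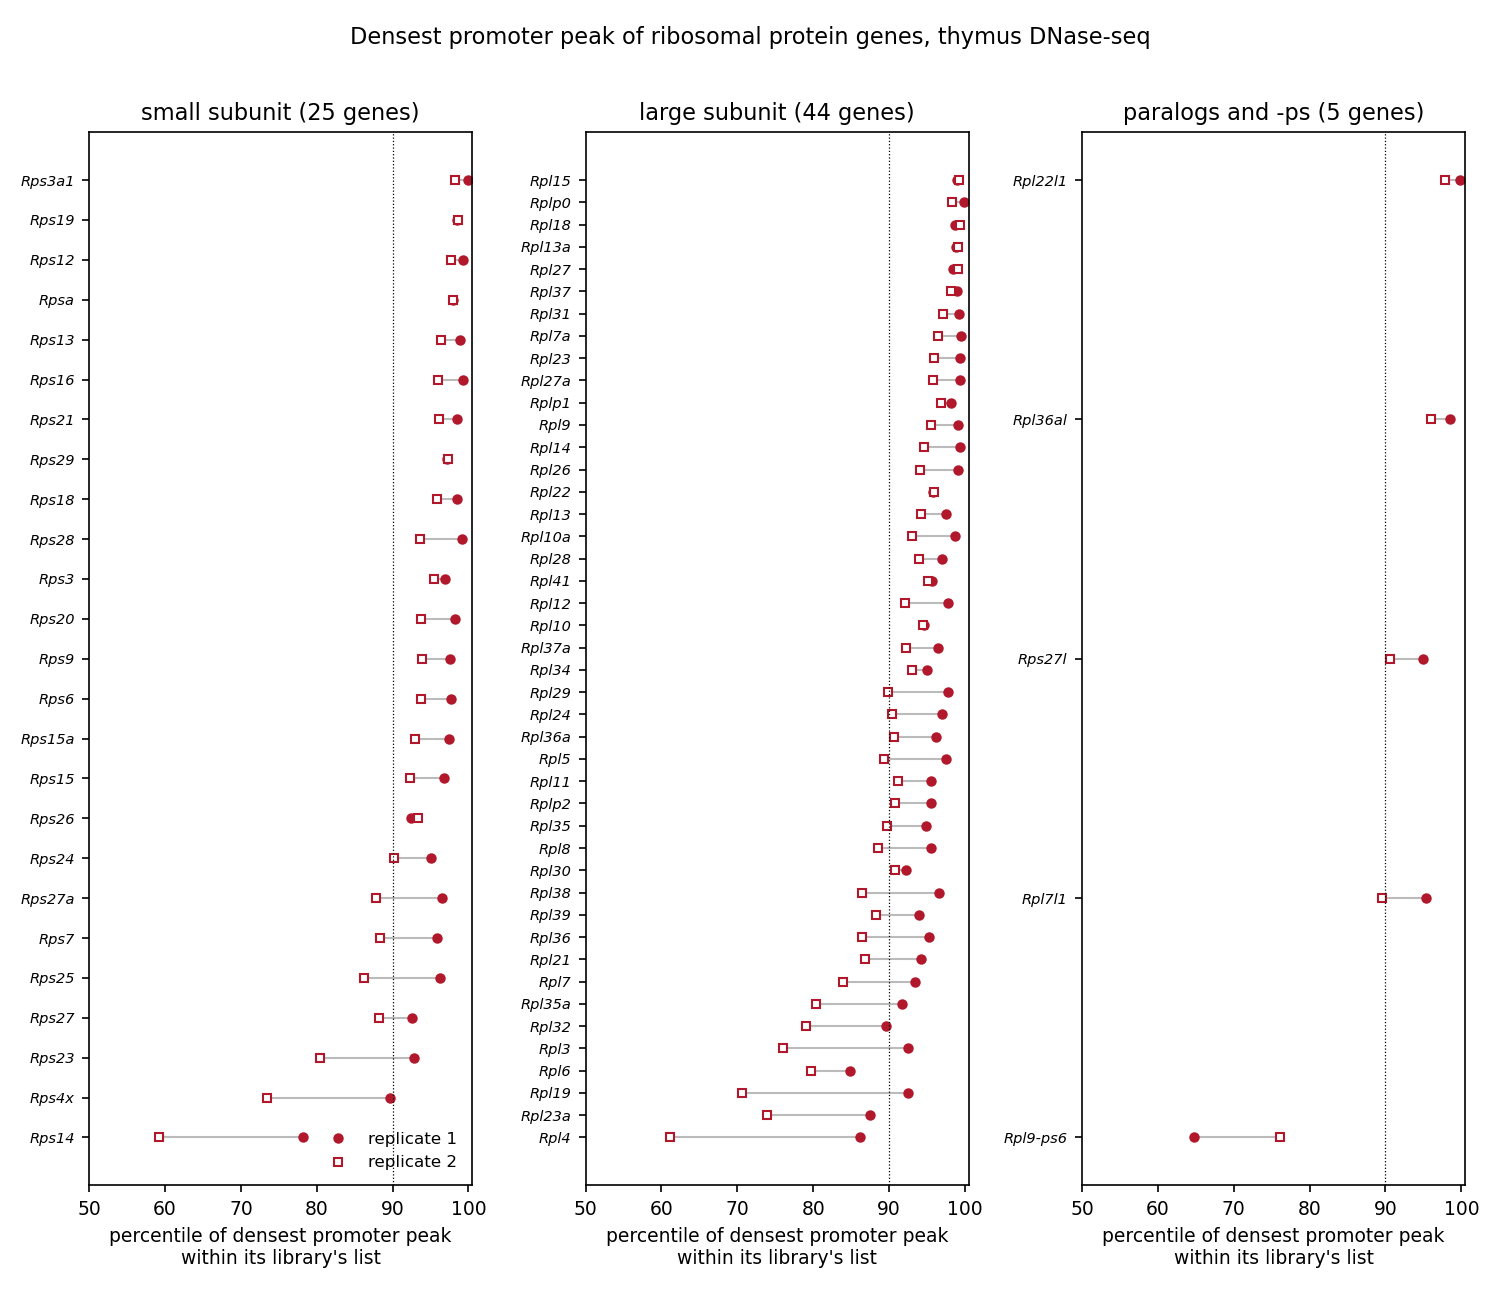
Percentile of the densest promoter peak within its library's peak list (x axis) for 74 of the 79 open ribosomal protein genes, with replicate 1 as filled circles, replicate 2 as open squares and a dotted line to the right of which the densest 10% of peaks lie. Most genes lie to the right of the line in both libraries, and Rps14, Rpl4 and Rpl9-ps6 lie lowest.

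The 5 densest promoters belonged to Rps3a1, Rpl15, Rplp0, Rpl18 and Rpl13a. Rps3a1, a small-subunit protein, had percentiles of 99.9 and 98.3 and densities of 48.8 and 19.5 in replicates 1 and 2. Rplp0, which anchors the acidic stalk to the large subunit, had 99.9 and 98.3. Rpl15 had 99.0 and 99.2, Rpl18 had 98.7 and 99.3, and Rpl13a had 98.9 and 99.0. Rpl13a is known in human cells for leaving the ribosome after interferon treatment to silence inflammatory mRNAs. The 2 libraries differed by less than 2 percentile points for each of these genes. They were chosen by their mean over both libraries, near the top of the scale. A small difference was therefore fixed by the choice and says nothing on how well the libraries agree.

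The 5 least dense were Rps14, Rpl9-ps6, Rpl4, Rpl23a and Rps4x. Rps14, whose loss of a copy causes the anaemia of human 5q- syndrome, had 78.2 and 59.2. The 5′ end of the gene itself held weaker peaks, at percentiles of 72.5 and 48.0. Rps14 has 10 annotated starts, and these values cover only the surroundings of its 5′ end. Rpl4, which lines the exit tunnel of the ribosome, had 86.2 and 61.2. That peak lay 173.5 and 213.5 bp from the start of Zwilch. The peak nearer the gene start of Rpl4 had 71.9 and 52.5. Rpl23a, at the mouth of the exit tunnel, had 87.4 and 73.9. Rpl9-ps6 differed from the others in being higher in replicate 2. Rps4x is given with the X-linked genes.

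Within the stalk, which recruits translation factors, Rplp0 was highest, followed by Rplp1 at 98.2 and 96.8, Rpl12 at 97.8 and 92.1, and Rplp2 at 95.5 and 90.7. The values of Rplp1 and Rpl12 overlapped between libraries, as did those of Rpl12 and Rplp2. The partners of 5S RNA that restrain Mdm2 when ribosome assembly fails, Rpl5 and Rpl11, had 97.5 and 89.3, and 95.5 and 91.2. Rps19, the gene most often mutated in human Diamond-Blackfan anaemia, had 98.5 and 98.7. Rps6, the target of S6 kinase, had 97.7 and 93.7. Rps27a, made as a fusion with ubiquitin, had 96.5 and 87.8, from a peak 29.5 and 39.5 bp from the start of Clhc1. Rpl22 had 95.8 and 96.0, and its paralog Rpl22l1 had 99.8 and 97.8, so Rpl22l1 was the higher of the pair in both libraries.

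The 4 X-linked genes were all open. Rpl10, mutated in some human T-cell leukaemias, had percentiles of 94.5 and 94.5. Rpl36a had 96.2 and 90.6, Rpl39 had 93.9 and 88.2, and Rps4x had 89.6 and 73.4. Their median was 94.2 and 89.4, against 96.96 and 93.2 over the 74 open subunit genes. The animals were female, so signal from an active and an inactive X is mixed here, and its part in these values was not tested.

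**Figure D2:**
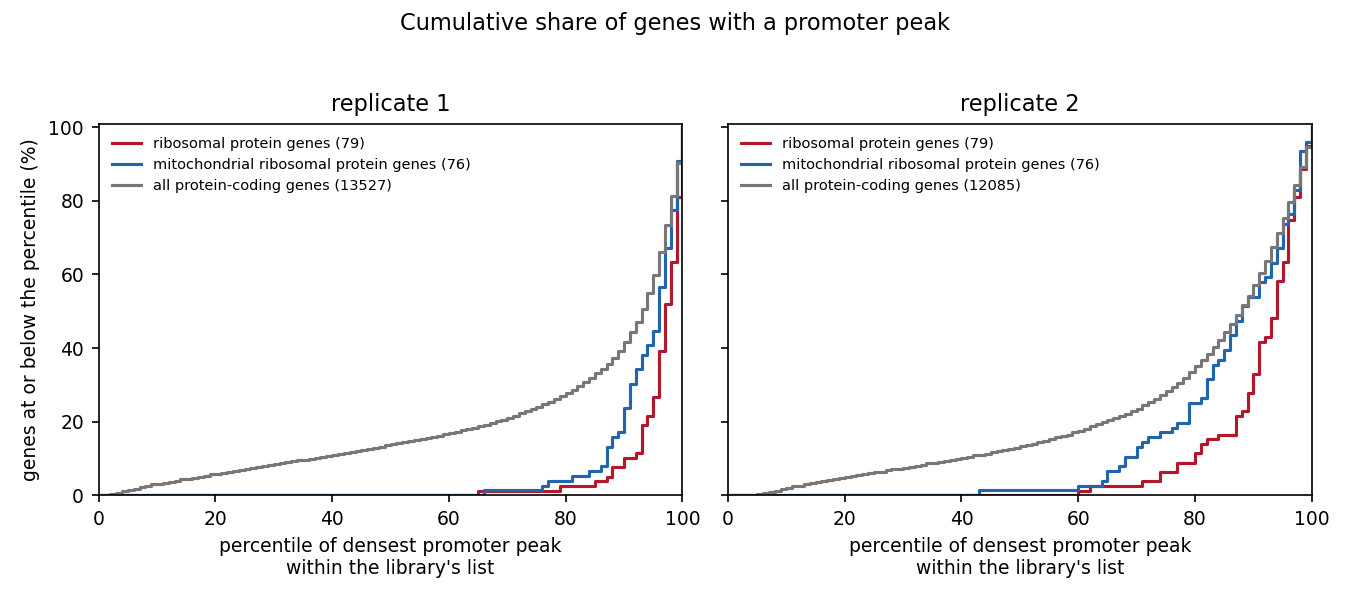
Cumulative share of genes (y axis, percent) whose densest promoter peak lies at or below each percentile of its library's list (x axis), for ribosomal protein genes, mitochondrial ribosomal protein genes and all protein-coding genes with a promoter peak. The curve of ribosomal protein genes rises latest in both libraries, with medians of 96.96 and 93.01.

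The densest peak sat close to the annotated start in most members. The median distance of its midpoint from the gene start came to -15.5 bp (replicate 1) and -9.5 bp (replicate 2). It was within 100 bp for 53 of 79 members (67.1%) and 58 of 79 (73.4%), against 56.1% and 58.3% of all genes with a promoter peak. In 8 members it lay more than 300 bp away in both libraries. The distances were 310.5 and 300.5 bp for Rpl15, 349.5 and 359.5 bp for Rpl30, 443.5 bp in both libraries for Rpl35, 491.5 bp in both for Rps25, 587.5 bp in both for Rpl3, and -444.5 and -484.5 bp for Rpl4. Rps14, at 1092.5 and 1012.5 bp, and Rpl9-ps6 complete the set.

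Both annotation and neighbours bear on these distances. When the nearest annotated start was used in place of the gene's 5′ end, the midpoint moved to -13.5 and -23.5 bp for Rpl15, to -31.5 and -21.5 bp for Rpl30, to -58.5 bp in both for Rpl35 and to -29.5 bp in both for Rps25. Measured this way over the 82 members with a peak at any start, the median was -29.0 and -26.5 bp, and 70 (85.4%) and 73 (89.0%) lay within 100 bp, against 88.5% and 84.6% of mitochondrial ribosomal protein genes and 64.9% and 67.5% of all such genes. The measure takes the nearest of several starts, and the median number of annotated starts was 5 per member, 4 per mitochondrial ribosomal protein gene and 3 over all protein-coding genes. Several of these peaks also lie beside the start of another gene on the opposite strand. The Rps25 peak was 30.5 bp from the start of Trappc4, the Rpl3 peak 53.5 bp from that of Syngr1, and the Rpl15 peak 55.5 and 45.5 bp from that of Nkiras1. Which of the paired genes such a peak serves cannot be told apart. An opposite-strand protein-coding start lay within 1 kb of 16 of 91 members (17.6%). The share was 42.3% of mitochondrial ribosomal protein genes, 18.5% of genes open in both libraries and 10.9% of all protein-coding genes. The members were thus near open genes at large.

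Rps19 and Rpl7l1 each had a pair of dense sites whose order differed between the libraries. For Rps19, the upstream peak was at percentile 98.5 and the one at the start at 96.5 in replicate 1. In replicate 2 they were at 93.9 and 98.7. For Rpl7l1, the upstream peak was at 95.3 and the one at the start at 94.9 in replicate 1, and at 82.8 and 89.5 in replicate 2.

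**Figure D3:**
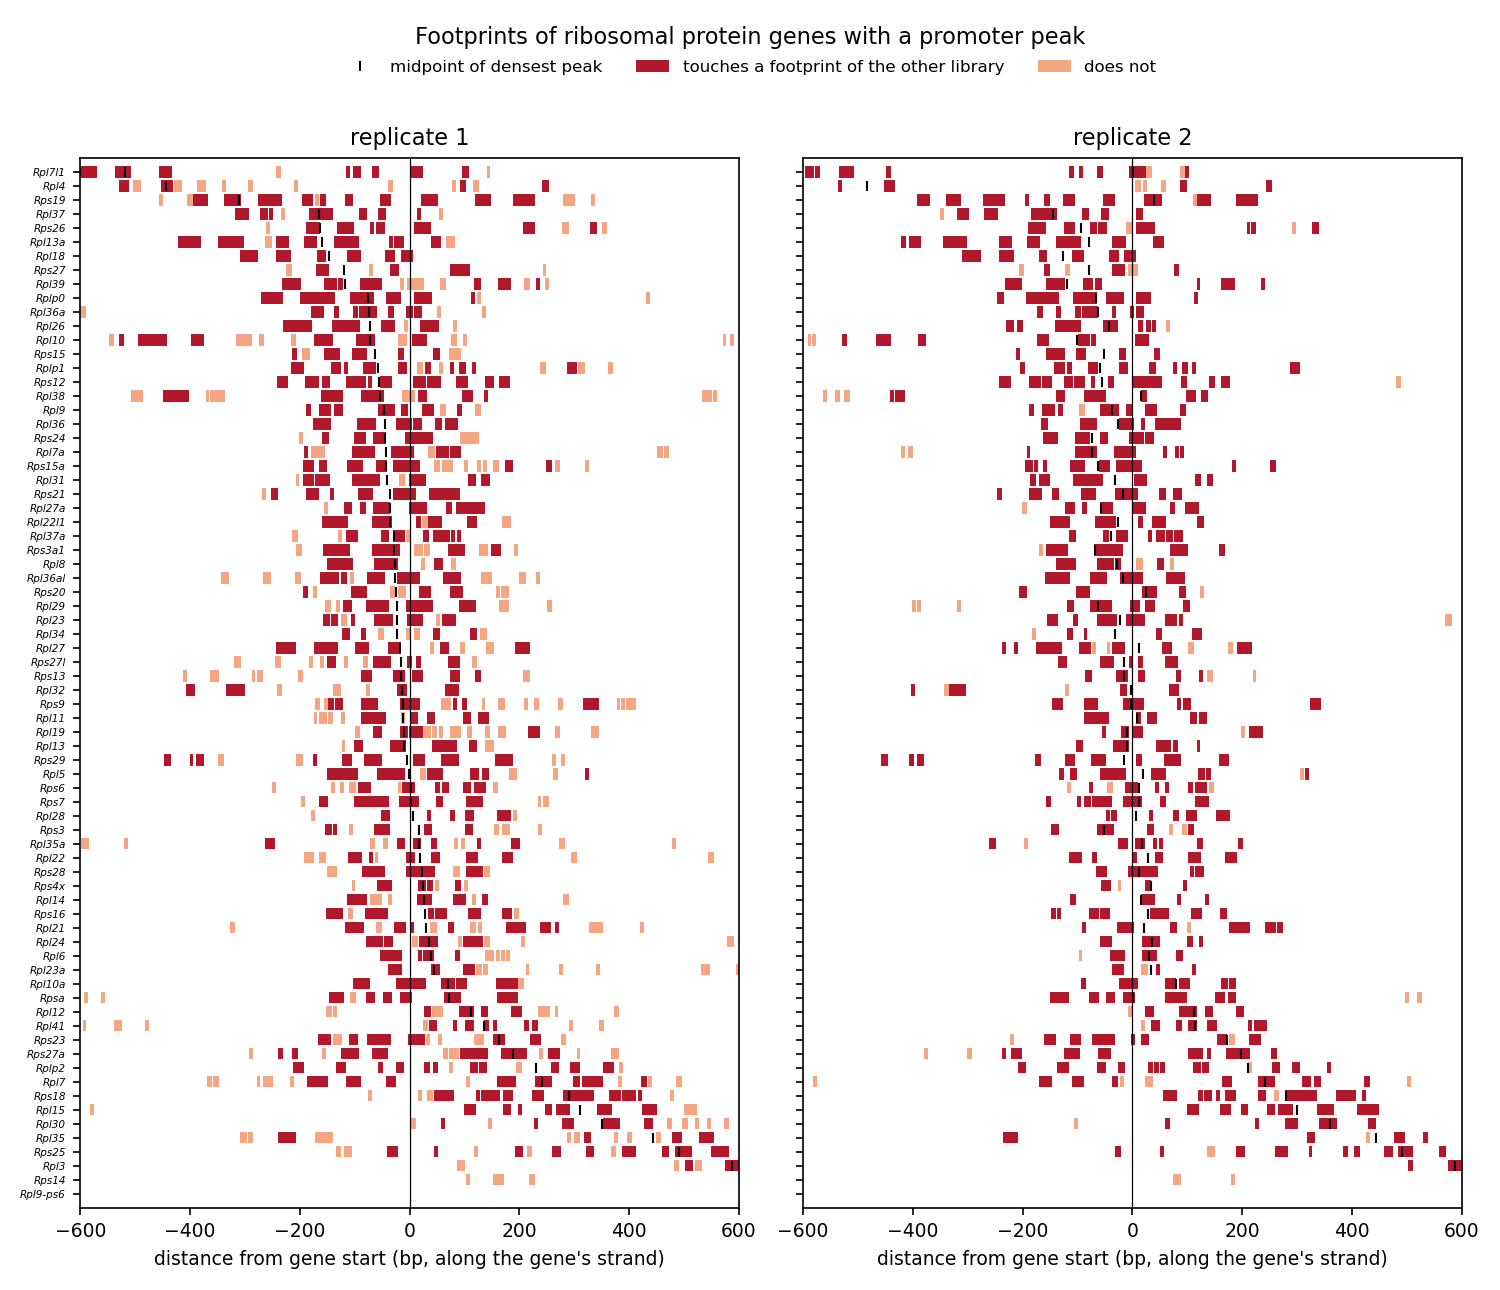
Footprints (bars) of 74 of the 79 open ribosomal protein genes by distance from the gene start in bp, 1 row per gene sorted by the distance of the densest peak in replicate 1 (black ticks mark its midpoint). Dark bars touch a footprint of the other library and light bars do not, and the footprints follow the peak in genes such as Rpl15, Rpl30 and Rps25, where it lies downstream.

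Open ribosomal protein promoters held a median of 10 footprints in replicate 1 and 7 in replicate 2, or 8.5 ± 2.1 (SD, n = 2). Mitochondrial ribosomal protein genes had 9 and 6, and all genes with a promoter peak 8 and 7. The members held 815 and 566 footprints in all, with a median width of 13 bp in each library. Of these, 464 (56.9%) in replicate 1 and 487 (86.0%) in replicate 2 touched a footprint of the other library, against 54.9% and 78.5% of all promoter footprints. Bases with a false discovery rate below 0.05 for cutting numbered a median of 1240 and 856 per open member window, against 1164 and 822 over all open genes.

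Rpl7, a large-subunit protein, had the most footprints, 22 and 12 in replicates 1 and 2. Rpl38, needed for patterning of the mouse embryo, had 17 and 12. Rplp2 had 14 and 13, and Rpl10 had 16 and 10. Rps19, with 15 and 11, had the same mean as Rpl10. Apart from the single pair of Rpl9-ps6, with 1 in each library, low numbers were 5 and 4 around the 5′ end of Rps14. Both Rpl13 and Rps28 had 6 and 5. The number agreed less between libraries than the density rank did, with a Spearman's rho of 0.48 over 79 members and 0.77 over all 11945 genes. Across the 79 members the rho of percentile with footprint number was -0.145 in replicate 1 and 0.285 in replicate 2, against 0.491 and 0.621 over all genes. In replicate 1 Pearson's r of the same pair was 0.227, so the sign depended on the measure.

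A footprint covered the annotated gene start base itself in 30 of 79 open members (38.0%) in replicate 1, against 29.8% of all genes with a promoter peak. In replicate 2 it did so in 28 of 79 (35.4%), against 28.4%. For 24 genes this held in both libraries. At the annotated start nearest to the densest peak, a placement chosen after the data were seen, the count was 36 of 82 (43.9%) in each library, against 31.7% and 30.02% of all such genes. Mitochondrial ribosomal protein genes had 46.2% and 44.9%.

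**Figure D4:**
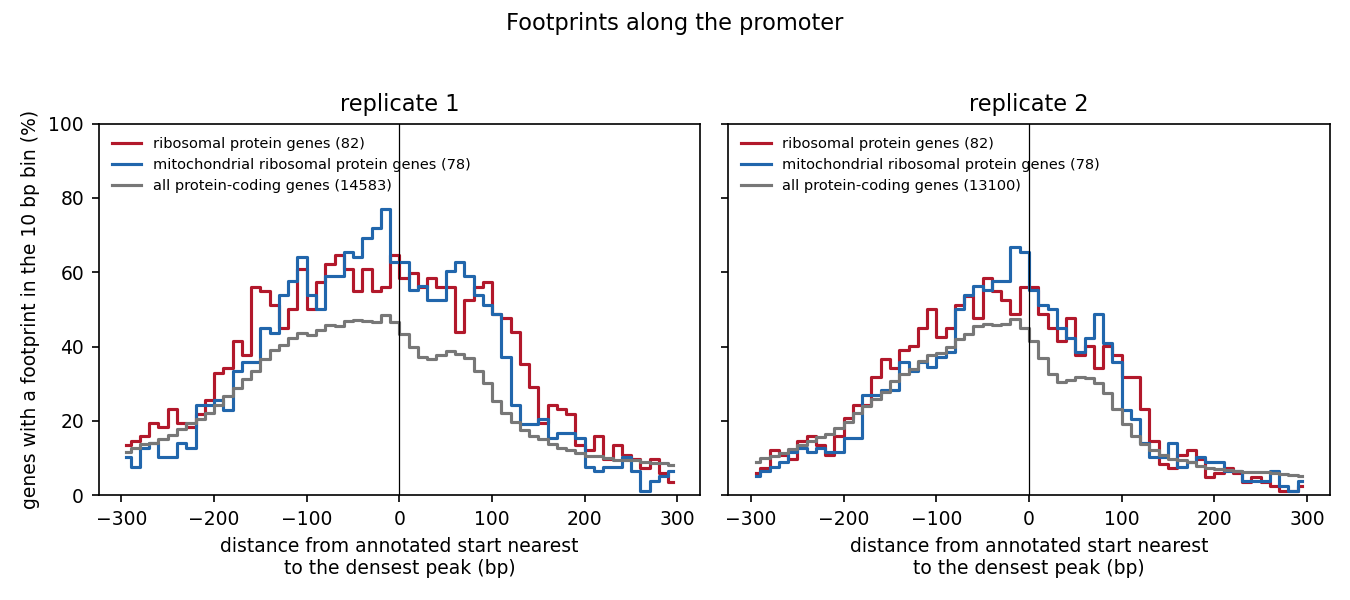
Share of genes with a footprint in each 10 bp bin (y axis, percent) by distance in bp from the annotated start nearest to the densest peak, for ribosomal protein genes, mitochondrial ribosomal protein genes and all protein-coding genes with a peak at any start. In the bin that begins at the start the shares were 58.5% and 56.1% for ribosomal protein genes, 62.8% and 55.1% for mitochondrial ribosomal protein genes, and 43.3% and 41.4% for all genes.

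Words known for transcription factors were searched from 250 bp before to 50 bp after the gene start, on both strands unless stated. The ETS/GABP word CCGGAAG was in 23 of 91 ribosomal protein promoters (25.3%), against 34.6% of mitochondrial ribosomal protein promoters, 17.8% of promoters open in both libraries and 10.8% of all protein-coding promoters. The YY1 word AAGATGG was in 11 (12.1%), against 16.7%, 6.96% and 6.22% of the same sets. The E-box CACGTG, the word of Myc and its relatives, was in 12 (13.2%), against 6.41%, 10.5% and 7.75%. From 100 bp before to 50 bp after the start the E-box was in 6 members (6.59%), against 3.85%, 6.84% and 4.86%, so its share no longer exceeded that of open promoters. The CRE word TGACGTCA was in 5 (5.49%), against 2.56%, 3.66% and 2.43%.

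GC-box and CCAAT words were not more common in members than in open promoters at large. The SP word GGGCGG was in 40 members (44.0%), against 44.9% of mitochondrial ribosomal protein promoters, 63.3% of open promoters and 43.0% of all promoters. The NFY word CCAAT was in 27 (29.7%), against 35.9%, 38.9% and 39.0%. The NRF1 word GCATGCGC was in 3 (3.30%), against 8.97%, 5.41% and 3.71%. The lymphoid words gave 11 members (12.1%) for RUNX (TGTGGT), against 12.8%, 12.4% and 15.3%, and 12 (13.2%) for TCF/LEF (CTTTGA), against 12.8%, 12.3% and 15.8%. The TATA word TATAAA, on the gene strand 40 to 15 bp before the start, was in 0 members, against 0 mitochondrial ribosomal protein promoters, 0.795% of open promoters and 2.41% of all promoters. With any annotated start it was in 4 members (4.40%), against 2.56%, 2.79% and 4.30%. Matches of different words overlapped in 1 member for ETS with SP and in 1 for SP with NFY. These shares describe letters in a window and show no binding.

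Footprints gave part of these words a second readout. Of 26 ETS matches in member promoters, 19 touched a footprint in replicate 1 and 16 in replicate 2, and 10 lay wholly inside one in each library. Among them were both matches of Rps21 and those of Rps7 and Rplp1, seen in the sequences above for Rps21 and Rps7. The share of member matches touched, closed members included, was 73.1% and 61.5%, against 71.0% in both libraries for mitochondrial ribosomal protein genes, 65.6% and 61.2% for promoters open in both libraries, and 59.6% and 55.5% for all promoters. In replicate 2 it was nearly that of open promoters. The matches of the closed Rpl39l, none of them touched, count in the member share but not in that of open promoters. The TCF/LEF word was touched in 1 of 12 matches in replicate 1 and 0 of 12 in replicate 2, closed members included. The shares were 45.5% and 27.3% in mitochondrial ribosomal protein promoters, 27.1% and 22.6% in open promoters and 11.5% and 9.50% in all promoters. For RUNX (11 matches) the member shares were 27.3% and 9.09%. In the same sets they were 36.4% and 9.09%, 23.5% and 17.6%, and 10.6% and 7.61%. For SP (66 matches) the member shares were 77.3% and 69.7%, against 79.4% and 73.5%, 69.5% and 62.3%, and 58.7% and 52.0%. Of all member footprints, 1.84% and 2.83% contained the ETS word, against 1.23% and 1.44% of all promoter footprints. The YY1 word was in 0.982% and 0.707%, against 0.314% and 0.261%, and the SP word in 7.73% and 9.36%, against 11.8% and 12.8%. Only 11 YY1 matches lay in member promoters, and 5 touched a footprint in replicate 1 and 3 in replicate 2. Those shares were 45.5% and 27.3%, against 61.5% and 53.8% for mitochondrial ribosomal protein genes. They were 39.5% and 32.7% for open promoters and 24.5% and 20.2% for all promoters. In replicate 2 the members were below open promoters.

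**Figure D5:**
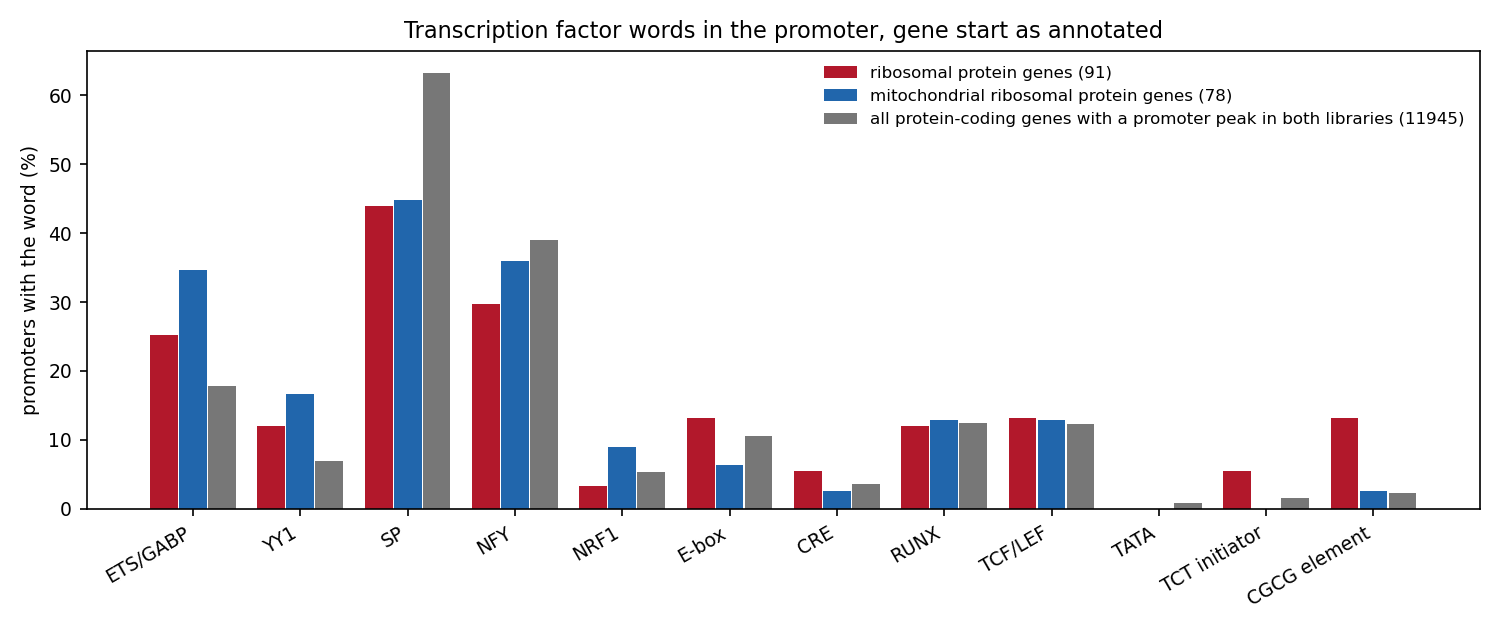
Share of promoters (y axis, percent) that hold each word from 250 bp before to 50 bp after the annotated gene start (narrower for TATA and the TCT initiator), for ribosomal protein genes, mitochondrial ribosomal protein genes and all genes open in both libraries. The CGCG element is at 13.2%, 2.56% and 2.34%, and the SP word at 44.0%, 44.9% and 63.3%.

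The CGCG element, added after the promoter sequences had been read, was held by 12 of 91 ribosomal protein promoters (13.2%), searched as TCTCGCGA on both strands. The share was 2.56% of mitochondrial ribosomal protein promoters, 2.34% of open promoters and 1.38% of all promoters. Because the word was picked from these sequences, the difference is a description only. Among them were Rpl4, Rpl7a, Rpl23a, Rpl26, Rpl27a, Rps3a1, Rps6, Rps15a, Rps19 and Rps28. Of the members named here, the palindrome TCTCGCGAGA was complete in Rps6, Rpl4, Rpl26 and Rps28.

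The element mostly lay near the start and inside a footprint. Its centre was at -1.5 bp in Rps6, 3.5 bp in Rps28, -5.5 bp in Rpl7a, -21.5 bp in Rps15a, -26.5 bp in Rpl23a and -38.5 bp in Rpl26, and in each of these genes it was wholly inside a footprint in both libraries. In Rps3a1, at 11.5 bp, it was inside a footprint in replicate 1 only. In Rpl27a, at 30.5 bp, a footprint touched it in replicate 1. In Rps19 and Rpl4 it was more than 200 bp upstream, at -217.5 and -238.5 bp, and no footprint touched it. Of the 17 member matches, in which a palindrome counts 2 times, 82.4% and 70.6% touched a footprint, against 85.7% and 83.3% of matches in all open promoters.

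The count of members with a pyrimidine start depended on which annotated start was read. The TCT initiator, written CCTTTCT or CCTTTTT, or the same beginning with T (TCTTTCT and TCTTTTT), on the gene strand within 25 bp of the start, was in 5 members at the gene start (5.49%), against 0 mitochondrial ribosomal protein genes, 1.58% of open and 2.10% of all promoters. With any annotated start it was in 22 members (24.2%), against 8.97%, 11.01% and 9.10%. Further measures were chosen after the data were seen. A C at the start followed by at least 4 pyrimidines occurred at 47 of 489 annotated starts of members (9.61%), against 2.16% of mitochondrial ribosomal protein starts and 2.19% of all starts. With any annotated start counted, 35 of 91 members (38.5%) had such a start. The share was 8.97% of mitochondrial ribosomal protein genes, 10.5% of genes open in both libraries and 8.52% of all genes. At the gene start itself it was 8 members (8.79%), against 2.56%, 2.285% and 2.33%. At the annotated start nearest to the densest peak it was 10 of 82 (12.2%) in each library, against 2.19% and 2.20% of all genes. The longest run counted from a start was 17 pyrimidines in Rps24, followed by 15 in Rpl27a, and Rpl7 had 14.

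A run of at least 8 pyrimidines lay within 50 bp of the gene start, on the gene strand, in 54 of 91 members (59.3%). The mirror case, a run of at least 8 purines, was found in 23 (25.3%). Over mitochondrial ribosomal protein genes the shares were 29.5% and 21.8%, and over all protein-coding genes 35.7% and 37.3%. Footprints touched 24 of the 73 runs in members (32.9%) in replicate 1 and 20 (27.4%) in replicate 2, counting runs of open and closed members. The shares were 70.8% and 62.5% over mitochondrial ribosomal protein genes, 43.2% and 37.3% over genes open in both libraries, and 22.6% and 19.1% over all protein-coding genes. The member share was thus below that of open promoters and above that of all promoters.

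From 250 bp before to 50 bp after the gene start, median GC content of the members was 54.7%, against 60.3% over genes open in both libraries and 55.0% over all genes. The members held a median of 6.0 CpG per 100 bp, against 6.67 and 3.67. Across the 79 open members, Spearman's rho of the densest peak's percentile with CpG was 0.53 in replicate 1 and 0.51 in replicate 2. Over 11945 genes it was 0.285 and 0.266. All points of a replicate share the library. CpG was counted around the gene start, whereas the densest peak could lie anywhere within 1 kb of it. Rps14, at 1.0 CpG per 100 bp, and Rpl23a, at 2.33, were low in both measures. Rpl41, with 2.0 CpG per 100 bp, had percentiles of 95.7 and 95.1. Rps27a, also with 2.0, had 96.5 and 87.8, and the second value lies below the members' lower quartile of 88.3 in replicate 2. Peak midpoints lay beyond the CpG window in Rps14, at 1092.5 and 1012.5 bp. They also did so in Rps27a, at 188.5 and 198.5 bp, and in Rpl41, at 134.5 and 114.5 bp. In these genes CpG and density thus describe different places.

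Other genes of translation were also open. For comparison, 54.4% of all protein-coding genes had a promoter peak in both libraries. Over all genes with a promoter peak the median percentiles were 92.8 and 87.4 in replicates 1 and 2. Of the TOP mRNA and translation factor list 22 of 22 had a promoter peak in both libraries, with median percentiles of 98.7 and 96.5, against 96.96 and 93.01 over the ribosomal protein genes. Eef1a1, the elongation factor that delivers aminoacyl-tRNA, was the low member at 73.6 and 60.6, and Eif4a1, the helicase of initiation, had 99.9 and 99.8. Ribosome biogenesis genes were open in 22 of 22 cases with medians of 95.2 and 89.2, and regulators of ribosome synthesis in 15 of 15 with medians of 97.4 and 93.9. In that list Rps6kb1, the S6 kinase, had 99.5 and 99.5, and Myc 82.2 and 67.5.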

How the data were processed

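DNase-seq of thymus was analysed as 1 group of 2 libraries, replicate numbers being those of the labels. Per the deposited notes, every list derives from the filtered mm10 alignment of the same library. Neither aligner nor peak and footprint callers are named in what was used here. The deposited peak value is a density signal made by the authors with unstated scaling, and it was ranked within the longer of the 2 lists of each library. The deposited q-value (false discovery rate) file lists only values below 0.05, per its values. The authors' footprint score was the same number in every line, so positions alone were used. Depth is not stated, so no counting interval is given.

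Promoters were 1 kb on each side of the 5′ end of GENCODE M21 genes. Distances run to peak midpoints along the gene's strand. Sequence came from RefSeq GRCm38, the same assembly. The analysis used Python 3.11.15, numpy 2.4.6, pandas 2.3.3, scipy 1.17.1 and matplotlib 3.10.9, with code tested on simulated data. Members, lists and words were chosen with earlier results of these data known. Named genes were members without a peak, the 5 highest and 5 lowest in density percentile and in footprints, those with a peak over 300 bp from the start in both libraries, paralogs, and members with a stated role. Members outside this rule, named for a motif or tract, were chosen after their values were seen. Some members and sequences are counted in the totals but not reported by name here, figures included. Alternatives varied the list, window, start, members and library. The CGCG word, the pyrimidine measures and the placement at the nearest annotated start were added after seeing the data.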

Additional observations from a re-analysis of the deposited data

How the results depend on the processing

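The count of 79 open genes stayed within 1.5 times under every alternative tried, from 74 without paralogs and -ps models to 82 with any annotated start. The median percentile of 94.99 kept within its spread except among promoter peaks alone, where it was 83.9, and left-out libraries gave 93.01 and 96.96. Median footprints numbered 4.5 when they had to overlap a peak, and lay between 7 and 10 with a library left out. The median distance was -27.75 bp with any annotated start, and between -15.5 and -9.5 bp with a library left out. Genes with a footprint over the start in both libraries numbered 49 with any annotated start and 39 within 10 bp, against 24. In single libraries they numbered 28 to 30. Shares over all genes were not computed for any annotated start or for within 10 bp. Footprints with at least 1 of the planned words made up 15.1%, but 19.4% when extended by 5 bp and 19.7% in peaks, and 13.6% to 16.6% in single libraries. Among all promoter footprints the shares were 16.7% and 18.3% in replicates 1 and 2. When extended, they were 24.3% and 27.1%, against 17.5% and 21.2% of member footprints. In peaks they were 20.2% and 21.2%, against 17.9% and 21.6%. Motif counts depended on the start and the window. With any annotated start, ETS/GABP was in 39 members, YY1 in 29, SP in 66, NFY in 51 and RUNX in 32. TCF/LEF was in 33, E-box in 24, NRF1 in 7 and TATA in 4. These shares of members and open promoters were 42.9% and 27.05% for ETS/GABP, 31.9% and 20.6% for YY1, and 26.4% and 20.6% for E-box. For SP they were 72.5% and 78.9%, for NFY 56.04% and 66.5%, and for RUNX 35.2% and 41.005%. For TCF/LEF they were 36.3% and 38.7%, for NRF1 7.69% and 7.995%, and for TATA 4.40% and 2.79%. Members were thus below open promoters for SP, NFY, RUNX, TCF/LEF and NRF1. From 100 bp before to 50 bp after the start, RUNX was in 3, TCF/LEF in 4, E-box in 6 and NRF1 in 1. Shares of members, open promoters and all promoters were 3.30%, 5.60% and 7.81% for RUNX and 4.40%, 4.78% and 6.76% for TCF/LEF. For E-box they were 6.59%, 6.84% and 4.86%, and for NRF1 1.10%, 4.10% and 2.51%. The TCT initiator was in 3 members without paralogs and -ps models. The share of footprints found in both libraries kept within its spread but has no value for a single library. No paired analysis was possible because both libraries belong to 1 group. Unknown depth, mixed cell types and the CAST allele limit all values, and their part was not tested.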
